A study of Mus musculus with 20 samples.

Results

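The genes described here code for 9 transporters and transporter subunits with which the kidney takes amino acids back from the filtered fluid: Slc3a1, Slc3a2, Slc7a7, Slc7a8, Slc7a9, Slc6a18, Slc6a19, Slc6a20b and Slc1a1. They were chosen by name, for their known place in the proximal tubule, and each symbol matched 1 gene identifier among the 55642 genes in the files. The data are bulk RNA-seq libraries of polyadenylated RNA from kidney and liver of DBA/2J males, a common inbred strain. JQ1 is a small molecule that displaces BET proteins, readers of acetylated histones, from chromatin, and the study used it for its action on BRDT, the BET protein of the testis. Kidney and liver were included to ask how far the drug altered organs other than the testis and whether any change lasted after withdrawal.

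The JQ1 treatment group had 50 mg/kg injected into the peritoneum once a day over 3 weeks and was sampled at 10 weeks of age (3 libraries per organ). The JQ1 recovery group had received the same course and was sampled at 16 weeks of age, 6 weeks after the last dose (3 libraries per organ). The control of each organ pooled 4 libraries of mice given only vehicle, DMSO in hydroxypropyl-β-cyclodextrin, of which 3 were sampled at the treatment time and 1 at the recovery time. Thus 3 of the 4 controls were younger than the recovery mice. All mice were otherwise unmodified males of 1 strain, and nothing in the labels ties a kidney library to a liver library of the same mouse.

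Amino acids are freely filtered in the glomerulus and nearly all are recovered in the proximal tubule. Carriers of the brush border bring them from the lumen into the cell, and carriers of the basolateral membrane pass them on to the blood. Several of these carriers are dimers of a light chain of the Slc7 family, which holds the transport path, and a heavy chain of the Slc3 family, which brings the light chain to the membrane. In humans, loss of SLC3A1 or SLC7A9 causes cystinuria, loss of SLC7A7 causes lysinuric protein intolerance, and loss of SLC6A19 causes Hartnup disorder.

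The libraries held 13952510 to 26895318 reads in kidney and 11968500 to 17529910 in liver, of which mitochondrial transcripts took 22.0% to 26.7% in kidney and 15.0% to 19.2% in liver. Libraries of 2 kinds stood apart. In liver, JQ1 recovery replicates 2 and 3 held 42379 and 30926 reads of Kap, a transcript of the proximal tubule, against 294 in replicate 1, 2 to 3 in the JQ1 treatment livers and 3 to 41 in the vehicle livers, so liver results with the recovery group are given with and without those 2 libraries. In kidney, JQ1 treatment replicate 1 had the highest levels of the fat cell transcripts Adipoq (36.0 CPM, reads scaled to library size using TMM factors) and Cfd (239) and of the macrophage transcript Lyz2 (340). Lyz2 was 1 of 6 immune markers listed. Of the 4 tested in kidney for treatment against control, 0 were called higher and 2 lower (1.4% and 2.73% of all genes). Their median log2 fold change was -0.31. Of 6 fat cell markers tested there, 0 were called. All 8 proximal tubule markers were detected in every kidney group, and 3 of 4 adrenal cortex markers (Cyp11b1, Cyp11b2 and Cyp21a1) were at 0 in every kidney library.

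Slc3a2 and Slc3a1 code for the heavy chains. Slc3a2 (ENSMUSG00000010095) makes 4F2hc, the partner of many light chains in most cell types and, in the tubule, of the basolateral exchangers. Slc3a1 (ENSMUSG00000024131) makes rBAT, the brush border partner of the cystine transporter. As these genes make the heavy chains of the 2 membranes of the tubule cell, the 250 bases upstream of their annotated starts are shown, from RefSeq on GRCm38.p6, read 5′ to 3′ on the gene's strand. Capitals mark matches on either strand to an HNF1 half-site (GTTAAT), an HNF4-type site (CAAAGTCC), a TATA box (TATAAA), a GC box (GGGCGG, letters on either strand), a CCAAT box or an ATF4-type element (TGATGNAA).
Slc3a2, minus strand, chr19:8713898-8714147: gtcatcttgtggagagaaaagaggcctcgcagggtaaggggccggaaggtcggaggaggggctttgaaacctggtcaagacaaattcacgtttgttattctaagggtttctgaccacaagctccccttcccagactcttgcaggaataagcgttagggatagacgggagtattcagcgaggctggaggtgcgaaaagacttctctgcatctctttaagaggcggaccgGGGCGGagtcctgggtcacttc
Slc3a1, plus strand, chr17:85028097-85028346: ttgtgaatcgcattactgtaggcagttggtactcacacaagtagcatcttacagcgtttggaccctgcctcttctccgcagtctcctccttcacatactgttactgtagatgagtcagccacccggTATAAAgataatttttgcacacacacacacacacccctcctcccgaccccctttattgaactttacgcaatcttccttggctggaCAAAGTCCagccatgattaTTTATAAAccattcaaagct

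The Slc3a2 window held 1 match, a GC box that began at base -22, and 53.6% of its bases were G or C. The Slc3a1 window held an HNF4-type site at -39 and TATA boxes at -124, -20 and -18, where the latest pair overlap on opposite strands, and 45.6% of its bases were G or C. Of all 32851 upstream windows in the RefSeq table, 32.7% held the GC box, 12.4% the TATA box, 1.2% the HNF4-type site, 33.8% the CCAAT box, 6.43% the HNF1 half-site and 3.45% the ATF4-type element. Windows were found for 8 of the 9 genes, and the 13 windows of these genes held the GC box in 5 cases and the HNF4-type site in 1. Some windows of a gene overlap. The 5 windows with a GC box came from 4 genes, as 1 GC box of Slc7a7 lay in overlapping windows and was counted in each. These are matches of letters, and which start the transcripts used was not determined.

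Once dosing had ended, Slc3a2 was the only one of the 9 transporter genes that passed the test in kidney, where it rose. It reached 260, 237 and 246 CPM in the JQ1 treatment kidneys, 190, 197 and 190 in the JQ1 recovery kidneys, and 186, 196, 204 and 178 in the control kidneys, the last being the vehicle of the recovery time. Every treatment library was above every control library, while the recovery libraries lay among the controls. Over all genes tested in kidney, 15.2% did not overlap between treatment and control, and 27.2% between treatment and recovery. The log2 fold change was 0.38 ± 0.07 (SE), or 1.30-fold, for treatment against control (edgeR adjusted p = 0.00204) and 0.01 ± 0.07 for recovery against control (edgeR adjusted p = 0.987). Treatment against recovery gave 0.37 ± 0.07 (edgeR adjusted p = 0.00324). Each comparison shares a group with the others, so they are not independent.

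The call for Slc3a2 rested on no single library. Without JQ1 treatment replicate 1, the library with the highest Adipoq, Cfd and Lyz2, its log2 fold change against control was 0.34 ± 0.07 (edgeR adjusted p = 0.0113). Against the vehicle of the treatment time alone, in which mice were of the same age, it was 0.35 ± 0.065 (edgeR adjusted p = 0.00451). Over the 15 alternative settings it ran from 0.28 to 0.42, the lowest being the fit on library totals without TMM factors, and the highest adjusted p was 0.0227. Nearly all reads of the gene, 99.6% in treatment and 99.7% in control kidneys, were assigned to 1 protein-coding transcript, Slc3a2-202, so the rise was in that transcript.

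**Figure D1:**
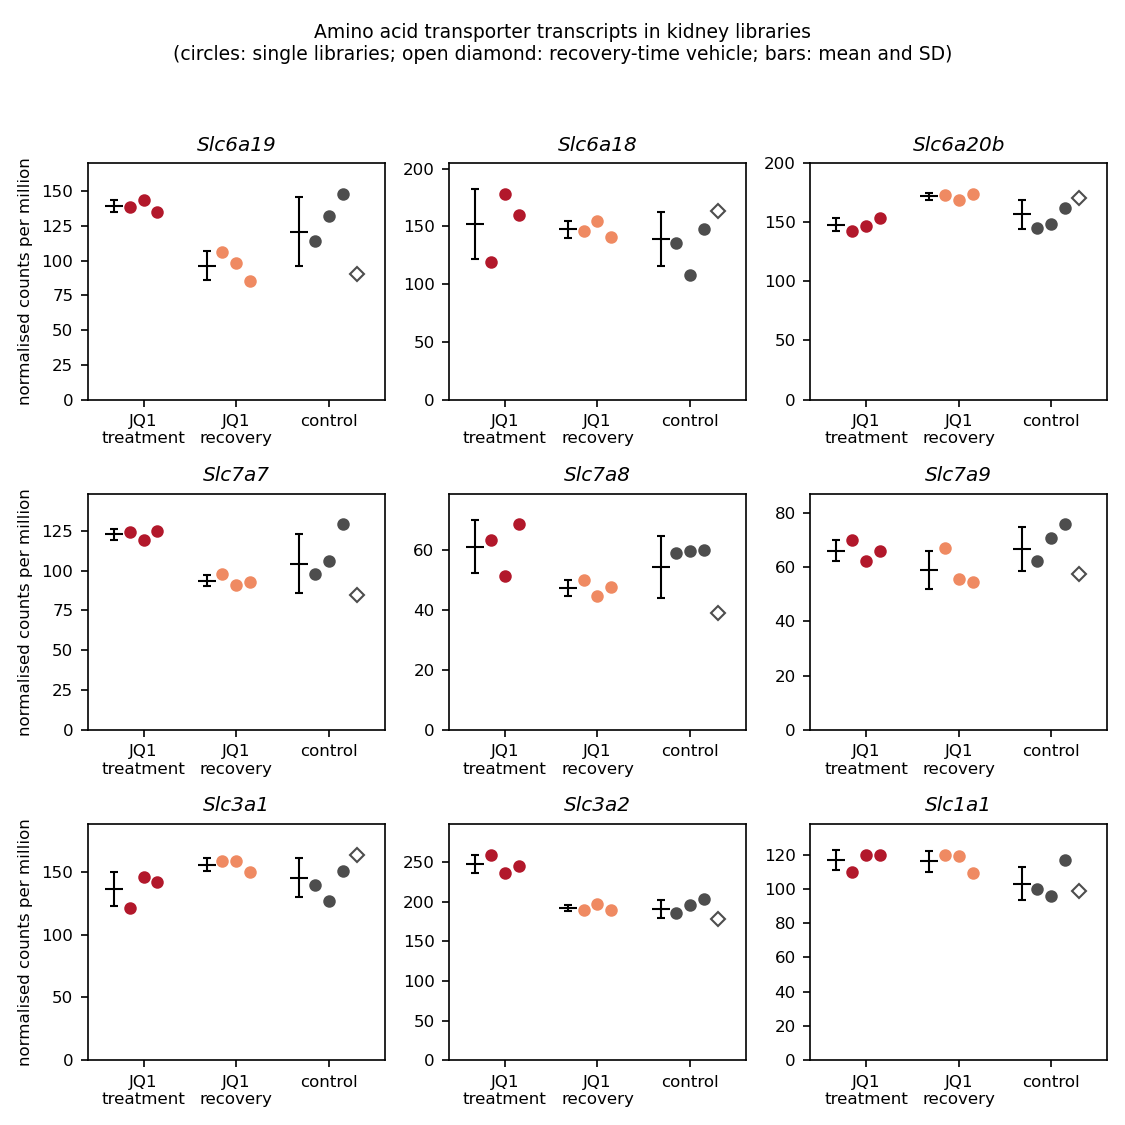
Levels in CPM (y axis) of the 9 transporter genes in each of the 10 kidney libraries, by group (x axis); circles are single libraries, the open diamond is the vehicle of the recovery time, and bars give the mean and SD. The 3 JQ1 treatment libraries of Slc3a2, 237 to 260, sit above all 4 controls, 178 to 204, where 15.2% of all genes did not overlap. For Slc6a19, Slc7a7 and Slc7a8 the open diamond lies with or below the recovery libraries.

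The share of members called, 1 of 9, stands beside 4.13% of the 17158 genes tested in kidney for treatment against control, where 1.4% were called higher and 2.73% lower. The median log2 fold change of the 9 genes was 0.17, against -0.01 over all genes tested, and 6 of the 9 were above 0. Proximal tubule markers moved in both directions in the same comparison, 2 of 8 higher (Slc34a1, the phosphate transporter, and Miox) and 1 lower (Kap), and their summed level was 17100 to 17400 CPM in treatment kidneys and 17600 to 26500 in controls. Most of that sum is Kap, at 10500 to 11100 in treatment and 12700 to 21200 in control kidneys. Slc34a1 reached 3010 to 3240 in treatment kidneys and 2220 to 2370 in controls. In bulk tissue, fewer cells of a type and less RNA per cell cannot be told apart, and the part of tubule composition in the transporter values was not tested.

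Slc3a1, the other heavy chain, did not pass. It had 121, 146 and 142 CPM in JQ1 treatment kidneys, 159, 159 and 150 in JQ1 recovery kidneys, and 140, 127, 151 and 164 in control kidneys. Treatment and control libraries overlapped, with a log2 fold change of -0.09 ± 0.08 (edgeR adjusted p = 0.646). All treatment libraries were below all recovery libraries, in a comparison where 27.2% of all genes did not overlap. That difference (-0.19 ± 0.09) had an edgeR adjusted p of 0.228.

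The basolateral light chains Slc7a7 and Slc7a8 both pair with the protein of Slc3a2. Slc7a7 (ENSMUSG00000000958) makes y+LAT1, which exports cationic amino acids such as lysine and arginine in exchange for neutral ones. It had 124, 119 and 125 CPM in JQ1 treatment kidneys, 97.5, 90.6 and 93.0 in JQ1 recovery kidneys, and 97.5, 106, 129 and 84.7 in control kidneys. The treatment libraries lay above 3 of the 4 controls and above the recovery libraries, where 27.2% of all genes did not overlap. Treatment against control was 0.23 ± 0.10 (edgeR adjusted p = 0.27), a value that passed only when vehicle replicate 3 of the treatment time, the highest control, was left out (0.36, edgeR adjusted p = 0.0256).

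Against JQ1 recovery, Slc7a7 was higher in JQ1 treatment by 0.38 ± 0.11 on the log2 scale, or 1.30-fold (edgeR adjusted p = 0.0479). That call was lost with each of the 6 libraries of the pair of groups left out in turn (adjusted p 0.0686 to 0.166), on library totals without TMM factors (0.0952) and with length-scaled counts (0.0875). The treatment and recovery mice also differed in age by design, and the vehicle kidney of the recovery age had 84.7 CPM, the lowest of all 10 libraries. Age and time since the last dose cannot be told apart in that comparison.

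Slc7a8 (ENSMUSG00000022180) makes LAT2, which exchanges neutral amino acids across the basolateral membrane. It was the least abundant of the 9 genes per length of transcript, with 63.3, 51.2 and 68.5 CPM in JQ1 treatment kidneys, 49.8, 44.6 and 47.6 in JQ1 recovery kidneys, and 58.9, 59.6, 59.8 and 38.8 in control kidneys. The 3 vehicle libraries of the treatment time lay within 1 CPM of each other and the vehicle of the recovery time was far below them. Treatment against control was 0.17 ± 0.14 (edgeR adjusted p = 0.63), and 0.04 ± 0.10 against vehicle of the same age (edgeR adjusted p = 0.892).

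Slc7a9 (ENSMUSG00000030492) makes b0,+AT, the brush border light chain that takes up cystine and cationic amino acids as the partner of rBAT. JQ1 treatment kidneys had 70.1, 62.4 and 65.8 CPM, JQ1 recovery kidneys 67.1, 55.5 and 54.6, and control kidneys 62.4, 70.7, 75.8 and 57.5. The 3 groups overlapped throughout. Treatment against control was -0.01 ± 0.10 (edgeR adjusted p = 0.967), and recovery against control -0.17 ± 0.10 (edgeR adjusted p = 0.627).

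Slc6a19, Slc6a18 and Slc6a20b are sodium-coupled carriers of the brush border. Slc6a19 (ENSMUSG00000021565) makes B0AT1, the main carrier of neutral amino acids. It had 139, 144 and 135 CPM in JQ1 treatment kidneys, 106, 98.5 and 85.1 in JQ1 recovery kidneys, and 114, 132, 148 and 90.1 in control kidneys. The recovery libraries were below the 3 vehicles of the treatment time and on both sides of the vehicle of their own age.

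For Slc6a19, treatment against control was 0.20 ± 0.14 (edgeR adjusted p = 0.539) and recovery against control -0.33 ± 0.14 (unadjusted p = 0.0447, edgeR adjusted p = 0.53). Left with the 3 younger vehicles alone, recovery against control was -0.44 and passed (edgeR adjusted p = 0.033). Set against the vehicle of its own age it was 0.10, in the other direction. Treatment against recovery was 0.53 ± 0.15, or 1.44-fold, with an edgeR adjusted p of 0.0667. Treatment against recovery passed with DESeq2 (adjusted p = 0.00405) and in a fit of those groups alone (edgeR adjusted p = 0.00161), and these mice differ in age.

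Slc6a18 (ENSMUSG00000021612) makes a related neutral amino acid carrier of the later tubule. Its levels were 119, 178 and 160 CPM in JQ1 treatment kidneys, 146, 155 and 141 in JQ1 recovery kidneys, and 136, 108, 148 and 163 in control kidneys. Treatment and control libraries overlapped over most of their range, and treatment against control was 0.13 ± 0.16 (edgeR adjusted p = 0.737). Its reads were divided between 2 protein-coding transcripts, Slc6a18-202 with 83.5% in treatment, 83.5% in recovery and 82.6% in control kidneys, and Slc6a18-203 with 16.3% in treatment, 15.6% in recovery and 16.7% in control kidneys.

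Slc6a20b (ENSMUSG00000025243) is a mouse gene grouped with the carriers of imino acids such as proline. Transport by its own product was not measured here. It has a near copy, Slc6a20a, so reads may have been divided between the pair. Slc6a20b had 143, 147 and 154 CPM in JQ1 treatment kidneys, 173, 169 and 174 in JQ1 recovery kidneys, and 145, 149, 162 and 171 in control kidneys. The treatment libraries were all below the recovery libraries, in a comparison where 27.2% of all genes did not overlap. The log2 fold change was -0.22 ± 0.07 (edgeR adjusted p = 0.0808), and it passed on library totals without TMM factors (-0.28, edgeR adjusted p = 0.0347). Slc6a20a was far lower, at 14.1, 16.5 and 14.8 in treatment, 9.53, 11.5 and 9.49 in recovery, and 12.9, 12.8, 12.2 and 11.9 in control kidneys. The copy thus ran the other way, with a log2 fold change of 0.58 ± 0.13 for treatment against recovery (edgeR adjusted p = 0.0085) and 0.29 ± 0.12 against control (edgeR adjusted p = 0.204). The call of Slc6a20a was lost without JQ1 recovery replicate 1 (0.53, edgeR adjusted p = 0.0506). With the reads of Slc6a20a and Slc6a20b added up, treatment against recovery was -0.16 ± 0.07 (edgeR adjusted p = 0.193).

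Slc1a1 (ENSMUSG00000024935) makes EAAT3, the brush border carrier of glutamate and aspartate. It had 110, 120 and 120 CPM in JQ1 treatment kidneys, 120, 119 and 109 in JQ1 recovery kidneys, and 100, 95.8, 117 and 98.8 in control kidneys. Both JQ1 groups overlapped the controls only through vehicle replicate 3 of the treatment time. The log2 fold changes were 0.17 ± 0.08 for treatment (unadjusted p = 0.0377, edgeR adjusted p = 0.259) and 0.17 ± 0.08 for recovery (unadjusted p = 0.0391, edgeR adjusted p = 0.508), and neither passed.

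**Figure D2:**
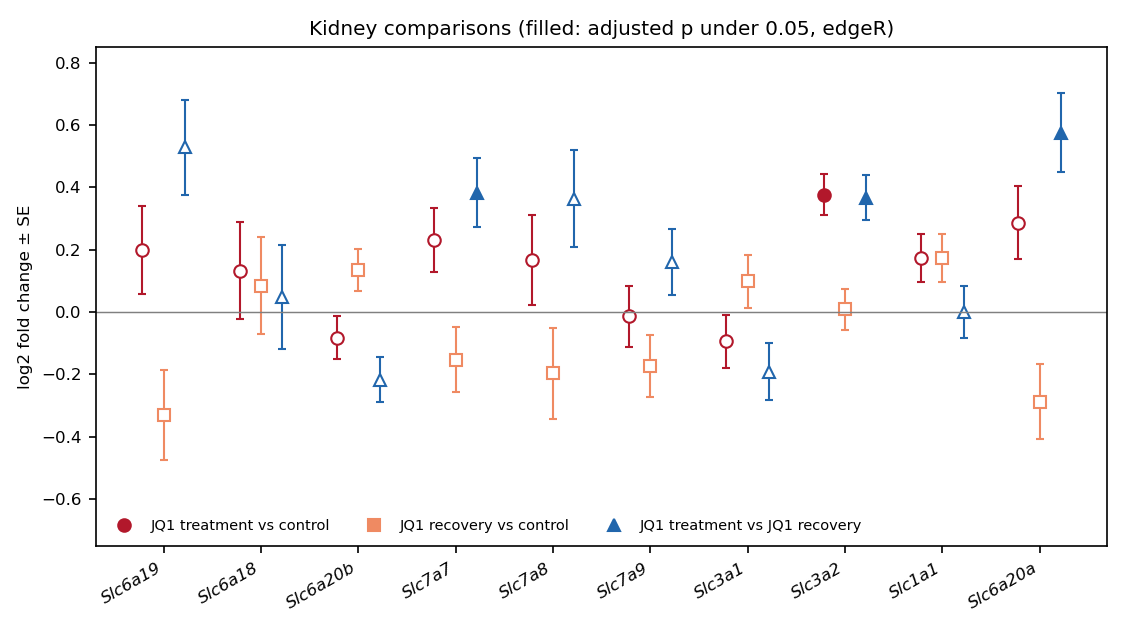
Log2 fold changes with their standard errors (y axis) of the 9 transporter genes and Slc6a20a (x axis) for JQ1 treatment against control, JQ1 recovery against control and JQ1 treatment against JQ1 recovery in kidney; filled symbols passed at an edgeR adjusted p under 0.05. Slc3a2 passed at treatment against control (0.38) and against recovery (0.37), and Slc7a7 and Slc6a20a passed only against recovery.

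Counted over the members, recovery against control called 0 of 9 by edgeR, which called 0.00583% of all genes there. DESeq2 also called 0 of 9, beside 109 of 17158 genes. Before adjustment 2 of 9 were under 0.05 by edgeR, beside 9.16% of all genes. Set against the vehicle of the recovery age alone, the direction of 6 of the 9 genes turned round: Slc6a19, Slc7a7, Slc7a8 and Slc7a9 became positive and Slc6a18 and Slc3a1 negative, with values between -0.15 and 0.29 on the log2 scale. Treatment against recovery called 2 of 9, both higher, where 7.31% of all genes were called and 2.41% were higher. In that comparison 6 of 9 had an unadjusted p below 0.05, beside 21.8% of all genes.

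Measured per length of transcript, Slc3a2 was the most abundant of the 9 genes in control kidneys, at 57.4 ± 4.52 TPM (SD, n = 4), followed by Slc3a1 at 53.7 ± 6.25 TPM. Slc7a7 came next at 41.4 ± 7.53 TPM, then Slc7a9 at 32.8 ± 4.07, Slc6a18 at 29.4 ± 6.11, Slc6a19 at 24.5 ± 5.09, Slc1a1 at 22.9 ± 2.28, Slc6a20b at 19.3 ± 1.58 and Slc7a8 at 11.4 ± 2.16 TPM. Neighbours in this order overlapped between libraries except Slc1a1 (21.2 to 26.2 TPM) and Slc6a20b (17.9 to 21.1), which just failed to overlap, and Slc6a20b and Slc7a8 (8.24 to 12.8). In JQ1 treatment kidneys Slc3a2 was at 68.1 ± 2.35 TPM and Slc3a1 at 45.7 ± 5.97 TPM (n = 3), while in JQ1 recovery kidneys Slc3a2 was at 56.7 ± 2.38 and Slc3a1 at 56.6 ± 3.25 TPM (n = 3).

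The ratio of light chain to heavy chain transcripts describes RNA only. Dimers were not measured, and each heavy chain has more than 1 light chain partner. Slc7a7 to Slc3a2 had a TPM ratio of 0.647 ± 0.031 in treatment (n = 3), 0.648 ± 0.038 in recovery (n = 3) and 0.717 ± 0.076 in control kidneys (SD, n = 4), and Slc7a9 to Slc3a1 one of 0.653 ± 0.106 in treatment, 0.505 ± 0.052 in recovery and 0.619 ± 0.118 in control kidneys. In both ratios the treatment libraries overlapped the controls. Against recovery, all treatment libraries of the Slc7a9 to Slc3a1 ratio (0.57 to 0.773) were higher (recovery 0.467 to 0.564), a difference given with no test. Slc7a13, a light chain that pairs with rBAT in the straight part of the proximal tubule, had a ratio to Slc3a1 of 3.94 ± 0.30 in treatment, 6.31 ± 0.71 in recovery and 5.85 ± 0.40 in control kidneys. Here the treatment libraries, 3.6 to 4.17, lay below all controls, 5.33 to 6.31, again with no test. Slc7a13 itself fell while Slc3a1 was not called, so this ratio is no separate result. Among single genes, 15.2% did not overlap between treatment and control and 27.2% between treatment and recovery. Such shares were not computed for ratios.

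Slc7a13 was among the genes of the wider amino acid transport lists that changed. Of 30 other amino acid transporters tested in kidney at the end of treatment, 0 rose and 4 fell, beside 1.4% of all genes called higher and 2.73% lower, with a median log2 fold change of -0.12 against -0.01 over all genes. Slc7a13, which takes up aspartate, glutamate and cystine in mouse, had 460, 492 and 554 CPM in treatment kidneys, 877, 876 and 999 in recovery kidneys, and 775, 692, 755 and 967 in control kidneys. It fell by 0.67 ± 0.10 on the log2 scale against control (edgeR adjusted p = 0.00107). All its treatment libraries were below all controls, where 15.2% of all genes did not overlap. Against vehicle of the same age the value was -0.55 ± 0.08.

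Slc15a2, the brush border carrier of small peptides, fell by 0.56 ± 0.11 on the log2 scale (edgeR adjusted p = 0.00451), with 18.8, 24.6 and 23.8 CPM in treatment kidneys, 31.1, 34.4 and 33.4 in recovery kidneys, and 33.6, 30.1, 37.7 and 31.0 in controls. The calls for Slc7a13 and Slc15a2 held under each of 15 alternative settings. Slc1a2, a glutamate transporter known from astrocytes, had 3.2, 3.36 and 5.77 CPM in treatment kidneys and 7.2, 6.83 and 7.15 in recovery kidneys, against 5.52, 7.88, 6.85 and 7.25 CPM in controls (-0.75 ± 0.20, edgeR adjusted p = 0.0465). Slc36a1, a proton-coupled amino acid carrier, had 39.4, 33.8 and 43.8 CPM in treatment kidneys and 53.6, 53.3 and 54.4 in recovery kidneys, against 46.5, 46.1, 50.2 and 53.9 in controls (-0.34 ± 0.09, edgeR adjusted p = 0.0416). The calls of Slc1a2 and Slc36a1 were each lost under 9 of the 15 alternatives, with adjusted p up to 0.172 and 0.158.

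**Figure D3:**
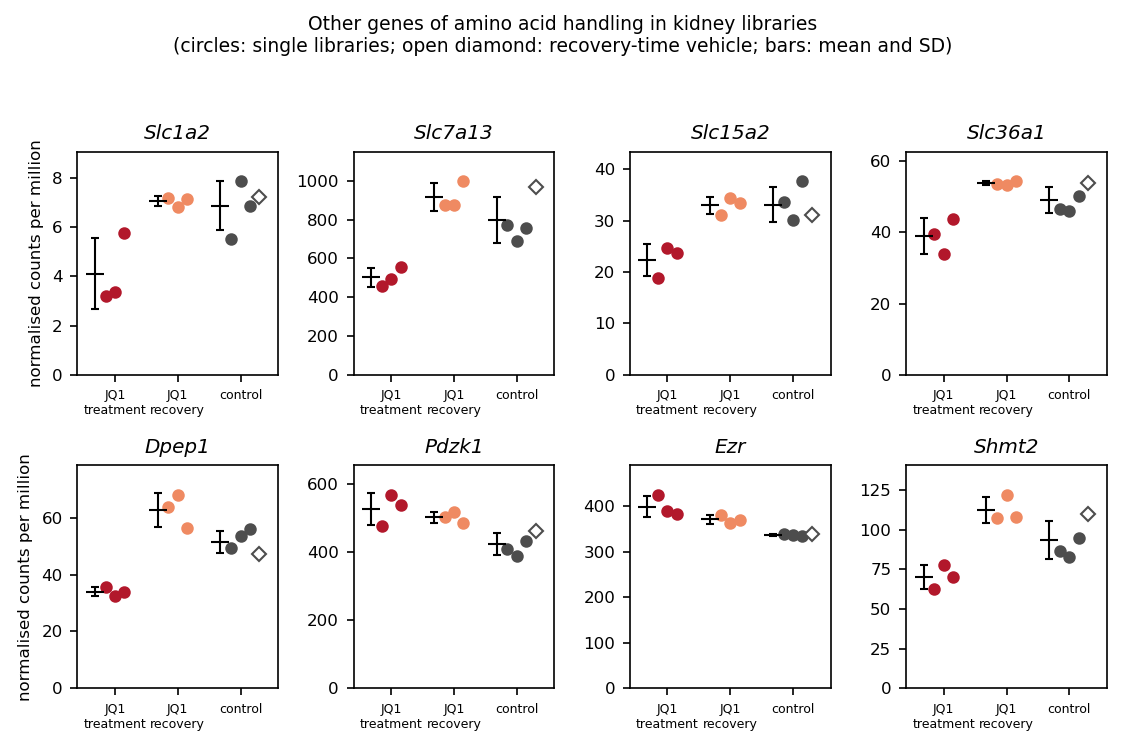
Levels in CPM (y axis) of the 8 genes of the wider lists that passed in kidney for JQ1 treatment against control, in each library by group (x axis); circles are single libraries, the open diamond is the vehicle of the recovery time, and bars give the mean and SD. The treatment libraries of Slc7a13 (460 to 554), Slc15a2, Slc36a1, Dpep1 and Shmt2 lie below all 4 controls, those of Pdzk1 and Ezr above them, and those of Slc1a2 overlap. Over all genes tested, 15.2% did not overlap in that comparison.

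Among 14 accessory and brush border proteins, 2 rose and 1 fell for treatment against control, beside the same 1.4% higher and 2.73% lower over all genes. Pdzk1, a scaffold that anchors transporters in the brush border, had 476, 569 and 537 CPM in treatment kidneys, 504, 518 and 485 in recovery kidneys, and 410, 389, 434 and 462 in controls (0.32 ± 0.08, edgeR adjusted p = 0.0228), and Ezr, which links the microvillus membrane to actin, had 426, 390 and 383 in treatment kidneys and 381, 363 and 370 in recovery kidneys, against 339, 338, 334 and 340 in controls (0.24 ± 0.06, edgeR adjusted p = 0.0317). Dpep1, a brush border dipeptidase that releases free amino acids from dipeptides, fell to 35.5, 32.5 and 33.8 in treatment kidneys, with 63.7, 68.1 and 56.2 in recovery kidneys, against 49.3, 53.6, 55.9 and 47.3 in controls (-0.60 ± 0.09, edgeR adjusted p = 0.000395). At recovery the libraries of Pdzk1, Ezr and Dpep1 were all above the controls, which for Dpep1 is the other direction, in a comparison where 10.5% of all genes did not overlap. The log2 fold changes for recovery against control were 0.25 ± 0.08 for Pdzk1, 0.14 ± 0.06 for Ezr and 0.28 ± 0.09 for Dpep1, and none passed (edgeR adjusted p 0.307 to 0.518). The calls of Pdzk1 and Ezr were each lost under 8 of 15 alternatives, among them library totals without TMM factors, and that of Dpep1 under none. Cltrn (collectrin), which the Slc6a19 and Slc6a18 proteins need in the kidney, had 786, 782 and 848 in treatment, 772, 780 and 862 in recovery and 752, 774, 827 and 742 in control kidneys, with all groups overlapping.

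The amino acid response genes are targets and partners of ATF4 that rise when amino acids run short, and include known regulators of Slc3a2. Of the 15 tested in kidney for treatment against control, 0 rose and 1 fell, beside 1.4% higher and 2.73% lower over all genes. Before adjustment 3 of 15 were under 0.05, beside 17.1% of all genes. The median log2 fold change of the 15 was 0.14, against -0.01 over all genes. The gene that fell was Shmt2, which makes glycine from serine in mitochondria, at 62.4, 77.8 and 70.1 CPM in treatment kidneys, 107, 122 and 108 in recovery kidneys, and 86.7, 83.0, 94.7 and 110 in controls (-0.42 ± 0.10, edgeR adjusted p = 0.021, lost under 7 of 15 alternatives). Of 11 tubular regulators tested, transcription factors and receptors among them, edgeR called 0, with 3 at an unadjusted p below 0.05, beside 17.1% of all genes. At recovery, edgeR called 0 genes of any of the 4 lists against control, although 8 other transporters, 9 accessory proteins, 4 response genes and 1 regulator were under 0.05 before adjustment, beside 9.16% of all genes. DESeq2 called 3 of the 70 genes tested over all 4 lists, 2 higher and 1 lower, beside 109 of 17158 genes. They were Slc9a3r1, Ddit3 and Vil1, named after their values were seen.

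Treatment against recovery, between mice of different ages, called 3 response genes higher and 1 lower, where 2.41% of all genes were higher and 4.91% lower. The 3 higher ones, named after their values were seen, were Ddit3 (1.03 ± 0.18, edgeR adjusted p = 0.00161), the stress-induced factor CHOP, Phgdh (1.097 ± 0.241, edgeR adjusted p = 0.0118), the first enzyme of serine synthesis, and Eif4ebp1 (0.61 ± 0.17, edgeR adjusted p = 0.0332), a repressor of translation, while Shmt2 was lower (-0.68 ± 0.10, edgeR adjusted p = 0.000546). The same comparison called 2 other transporters higher (Slc1a3 and Slc6a20a) and 4 lower (Slc7a13, Slc15a2, Slc1a2 and Slc36a1), 4 accessory proteins lower (Dpep1, Lap3, Slc9a3r1 and Vil1) and 1 regulator higher (Ppara), of which those not described above were likewise named after their values were seen.

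The genes whose levels ran most like those of Slc3a2 over the 10 kidney libraries were Sptbn1, Ostf1 and Nox4. Likeness was the root mean square difference of centred log2 levels, which was 0.0473, 0.0481 and 0.0553 among 13168 genes, while Slc3a2 itself had an SD of 0.19 over the same libraries. Sptbn1 averaged 782 ± 49.0 CPM in treatment, 627 ± 15.1 in recovery and 623 ± 34.6 in control kidneys, and Nox4 272 ± 27.9 in treatment, 201 ± 3.06 in recovery and 211 ± 17.3 in control kidneys. As these libraries chose the genes, their values are a description and carry no test.

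The vehicle libraries of both organs show where the 9 genes were expressed. All 9 were called higher in kidney than in liver, in a comparison that called 61.8% of 17710 genes and 32.1% higher in kidney, and since the genes were listed as renal the direction is no finding. In TPM, Slc3a2 was at 57.4 ± 4.52 in kidney and 10.6 ± 1.92 in liver, Slc3a1 at 53.7 ± 6.25 in kidney and 7.8 ± 1.37 in liver, and Slc7a7 at 41.4 ± 7.53 in kidney and 0.84 ± 0.21 in liver (SD, n = 4 each). Slc6a20b and Slc7a8 were at 0.15 ± 0.05 and 0.209 ± 0.111 TPM in liver. The size of these differences depends on the scaling, since for Slc3a2 the ratio of kidney to liver was 1.91 with TMM factors (log2 0.93 ± 0.12, edgeR adjusted p = 1.7e-06) and 3.44 on library totals.

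The other 4 genes were at or near 0 in vehicle liver. Slc7a9 had 4802 reads in the 4 vehicle kidneys and 0 in the 4 vehicle livers, and it was at least 1160-fold higher in kidney, scaled to library totals, by the lower end of the exact 95% interval, or 1430-fold against a floor of 3 reads over the liver group. Slc6a19 had 8752 reads in kidney and 1 in liver, Slc1a1 7459 in kidney and 3 in liver, and Slc6a18 10084 in kidney and 5 in liver. Scaled to library totals, the ratios were 7830 for Slc6a19 (exact 95% interval 1400 to 309000), 2220 for Slc1a1 (761 to 10800) and 1800 for Slc6a18 (773 to 5560). These intervals and the floor cover counting error only. In a fit that paired kidney and liver libraries of the same group and number, the call of Slc7a9 was lost (edgeR adjusted p = 0.0601). The labels do not give that pairing.

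**Figure D4:**
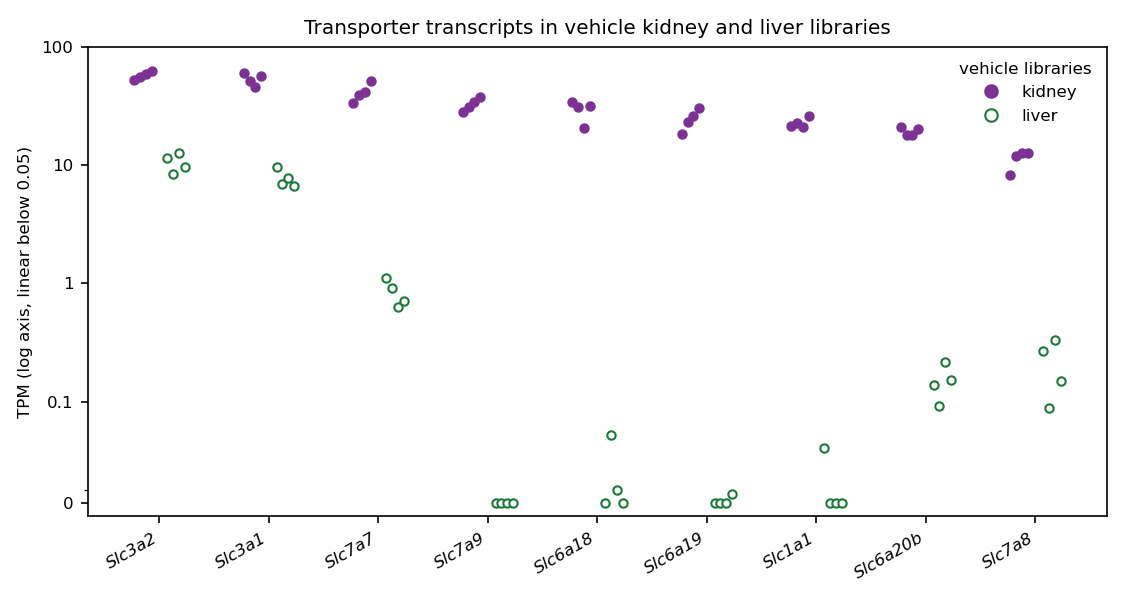
TPM (y axis, logarithmic above 0.05 and linear below) of the 9 transporter genes (x axis, in order of their mean in kidney) in the 4 vehicle kidney libraries (filled) and the 4 vehicle liver libraries (open). Slc3a2, Slc3a1, Slc7a7, Slc6a20b and Slc7a8 had reads in every liver library, Slc6a20b at 0.091 to 0.217 TPM and Slc7a8 at 0.0874 to 0.331, and Slc7a9 was at 0 in all 4.

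In liver, 5 of the 9 genes passed the filter on low counts, and edgeR called 0 of the 5 in any comparison. Of 14559 genes, 0.495% were called for treatment against control, 0.0343% for recovery against control and 2.29% for treatment against recovery. For treatment against control DESeq2 called 0, beside 291 of 14559 genes. In the edgeR test 0 of 5 had an unadjusted p below 0.05, beside 9.53% of all genes. Under the same threshold were 3 of 5 for recovery against control, beside 16.7% of all genes, and 3 of 5 for treatment against recovery, beside 19% of all genes. Slc3a2 had 55.0, 55.8 and 59.8 CPM in JQ1 treatment livers, 46.1, 86.1 and 71.8 in JQ1 recovery livers, and 48.4, 63.6, 57.1 and 63.5 in control livers. Treatment lay among the controls, with a log2 fold change of -0.03 ± 0.17 (edgeR adjusted p = 0.977).

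Slc3a1 in liver had 26.0, 23.9 and 26.4 CPM in JQ1 treatment, 20.4, 57.7 and 36.0 in JQ1 recovery, and 31.7, 31.0, 31.8 and 42.8 in control livers, the last being the vehicle of the recovery time. All treatment libraries were below all controls, in a comparison where 12.9% of all genes did not overlap. The log2 fold change was -0.43 ± 0.29 (edgeR adjusted p = 0.72), and in the fit without the 2 recovery livers that held kidney transcripts it was -0.44 ± 0.12 (edgeR adjusted p = 0.0703). It passed in neither fit.

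The remaining liver values turned on the same 2 libraries. JQ1 recovery livers 1, 2 and 3 had 38, 625 and 357 reads of Slc6a20b, 54, 522 and 231 of Slc7a7 and 29, 288 and 118 of Slc7a8, against 16 to 36, 32 to 78 and 10 to 31 reads in the control livers. Slc7a9, at 0 reads in the other 8 liver libraries, had 246 and 130 reads in recovery livers 2 and 3. Recovery against control gave log2 fold changes of 3.54 for Slc6a20b, 2.38 for Slc7a7 and 2.70 for Slc7a8 (edgeR adjusted p 0.129 to 0.139). Without recovery livers 2 and 3 these were 0.42 ± 0.47, 0.10 ± 0.40 and 0.42 ± 0.60 (edgeR adjusted p 0.961 to 0.988), from the 1 recovery library left.

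DESeq2 called those 3 genes higher in recovery livers than in control livers, where it called 651 of 14559 genes. It also called them higher than in treatment livers, where it called 1158 of 14559 genes. With recovery replicate 1 left out, only the 2 recovery libraries with kidney transcripts remained. In that fit edgeR called 8 of 9 members against control, beside 2107 of 15450 genes tested. Only 5 of the 9 had passed the filter when all recovery livers were kept. Slc6a19, Slc6a18, Slc7a9 and Slc1a1 entered here only through recovery livers 2 and 3, where they had 130 to 578 reads. Their calls against control are therefore no separate result. The 7 members other than the heavy chains together reached 8.76, 223 and 96.7 CPM in recovery livers 1, 2 and 3, where Kap was at 20.3, 2860 and 2030. They summed to 7.25 to 9.13 in treatment livers, where Kap was at 0.16 to 0.217, and to 6.15 to 8.34 in control livers, where Kap was at 0.18 to 2.97. Of all reads of these 7 genes, 3301 and 1471 fell in recovery livers 2 and 3. Their Kap reads would bring 1532 and 1118 at the ratio seen in the JQ1 recovery kidneys. That number depends on the marker, and only Kap was used. Slc34a1 had 13073 and 4191 reads in these livers and 43741 to 51095 in the recovery kidneys. Umod, a transcript of the loop of Henle, had 1484 and 1209 against 9058 to 11910, and Kap 42379 and 30926 against 347731 to 382456.

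**Figure D5:**
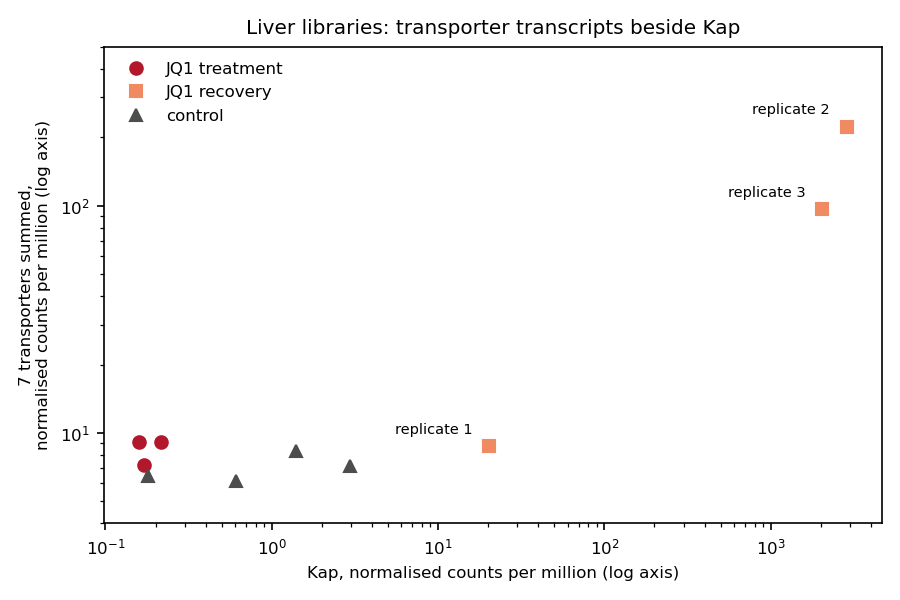
Summed level of the 7 members other than Slc3a1 and Slc3a2 (y axis) against the level of Kap (x axis), both in CPM on log axes, in the 10 liver libraries. JQ1 recovery replicates 2 and 3 stand at 223 and 96.7 for the transporters and 2860 and 2030 for Kap, far from the other 8 libraries, which lie between 6.15 and 9.13 on the y axis.

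The treatment effect was also compared between organs in 1 fit over all 20 libraries. For Slc3a2 the effect in kidney exceeded that in liver by 0.42 ± 0.19 on the log2 scale (unadjusted p = 0.04, edgeR adjusted p = 0.601), and for Slc3a1 by 0.35 ± 0.31 (edgeR adjusted p = 0.884). The edgeR test called 0 of the 9 genes, where it called 0.169% of 17710 genes. DESeq2 also called 0 of the 9, beside 122 of 17710 genes. Among the 9, Slc6a19, Slc6a18, Slc7a9 and Slc1a1 passed the filter of this fit only through kidney. They had 0 reads in every treatment liver and 0 to 5 over the vehicle livers together. Their SE in the edgeR fit was 7.461 to 166.27 on the log2 scale, so the comparison could not call them. At an unadjusted edgeR p below 0.05 was 1 of 9, beside 7.74% of all genes. The rise of Slc3a2 in kidney is therefore not shown to differ from its value in liver.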

How the data were processed

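According to the methods and the submitters' notes on processing, the authors trimmed single-end reads with fastp (0.20.1) and assigned them to mouse transcripts with Salmon (1.10.0). The deposited files hold, for 147833 transcripts, the estimated count of reads and the TPM, computed with the effective length that is also listed. Salmon divides reads shared by several transcripts by a model, so near copies are uncertain. Estimated counts were added up over the transcripts of each gene and rounded, and a filter (minimum count 10, minimum total 15) kept 17158 kidney and 14559 liver genes. The 10 libraries of an organ were fitted together with edgeR (4.0.16, R 4.3.3; TMM scaling, quasi-likelihood test, two-sided), with Benjamini-Hochberg adjustment over all genes tested and a threshold of 0.05. "Rose" and "fell" are used only of genes that passed. The fit was tested on simulated data.

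The 9 genes, the 4 lists and the tests were chosen with earlier results of these data known. Named were all 9 genes, every list gene that passed in kidney for treatment against control, Slc6a20a, Cltrn, and the 3 genes most like each member called there. Alternatives were other scaling, no filter, DESeq2 (1.42.0), length-scaled counts, other sets of controls or groups, a replicate block and each library left out. In the fits over both organs the block paired kidney and liver libraries of the same group and number. A supplementary legend swaps the vehicle numbers of the 2 times and gives a shorter recovery; the labels were followed. Library totals of 11968500 to 26895318 reads limit the precision of low genes. The labels do not say whether libraries are separate animals, so p-values measure the spread between libraries.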

Additional observations from a re-analysis of the deposited data

Results flagged for a closer look

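Among the 14 sets of 4 vehicle libraries looked at (9 genes in kidney and 5 in liver), 2 held a library far from the others by Dixon's rule, and chance alone marks about 1 set in 20. Slc7a8 in the kidney vehicle of the recovery time was at 38.8 CPM, against 58.9, 59.6 and 59.8 in the vehicles of the treatment time. Slc3a1 in the liver vehicle of the recovery time was at 42.8, against 31.0, 31.7 and 31.8. Both libraries are the only vehicle of their organ from 16-week-old mice, so age and library cannot be told apart.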

How the results depend on the processing

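Over 67 results for single genes and 1000 alternative values, 881 kept their direction and side of the threshold, 51 lost and 20 gained a call, and 48 changed sign. Members called moved as follows. In kidney, treatment against recovery called 1, Slc3a2, with length-scaled counts and with each of its 6 libraries left out (range 1 to 1); leaving out 1 library gave 0 to 1 members for recovery against control and 1 to 2 for treatment against control. In liver, DESeq2 called 3 in each comparison with recovery, and leaving out 1 library gave 0 to 8 for recovery against control and 0 to 9 for treatment against recovery. Over all genes, DESeq2 called 651 and 1158 of 14559 in those comparisons. Without recovery replicate 1, edgeR called 2107 and 2154 of 15450 genes. In that fit Slc6a19, Slc6a18, Slc7a9 and Slc1a1 passed the filter only through recovery livers 2 and 3. Genes of the 4 lists called in kidney for treatment against control, 8 in all, were 3 with length-scaled counts, 5 with the replicate block, 5 when the fit held just both groups, and 5 to 7 with 1 library left out. For recovery against control, with 0 in all, they were 5 without the filter, 3 with DESeq2 and 0 to 4 with 1 library left out. Over all genes, 182 of 28734 were called without the filter and 109 of 17158 with DESeq2. Without the vehicle of the recovery time, which gave the 4, 240 of 16987 were called.

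Signs turned in kidney on library totals without TMM factors for Cltrn in treatment against control (-0.038), Slc3a2 in recovery against control (-0.021), and Slc6a18 (-0.011) and Slc1a1 (-0.062) in treatment against recovery. That setting was chosen after seeing the data, moved the median of all genes to -0.10 in kidney for treatment against control, and gave 100 higher and 744 lower calls, against 240 and 469. Treatment against recovery turned for Slc6a18 with length-scaled counts (-0.078) and for Slc1a1 with the replicate block (-0.001). Recovery against the kidney vehicle of its own time gave 0.10 for Slc6a19, -0.15 for Slc6a18, 0.15 for Slc7a7, 0.29 for Slc7a8, 0.039 for Slc7a9 and -0.072 for Slc3a1. In liver, Slc3a2 was 0.013 for treatment against the vehicle of its time and Slc3a1 -0.17 for recovery against the vehicle of its time. Without liver JQ1 recovery replicates 2 and 3 together, also chosen after seeing the data, recovery against control was -0.76 for Slc3a1 and -0.34 for Slc3a2, and treatment against recovery was 0.045 for Slc6a20b, 0.15 for Slc7a7, 0.31 for Slc3a1 and 0.30 for Slc3a2. Slc7a8 in the difference between organs was -0.23 with length-scaled counts.

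With 1 library left out, values crossed 0 for Slc7a9 in kidney treatment against control (-0.072 to 0.063), Slc6a18 (-0.018 to 0.178) and Slc3a2 (-0.016 to 0.05) in kidney recovery against control, Slc6a18 (-0.081 to 0.197) and Slc1a1 (-0.043 to 0.042) in kidney treatment against recovery, Slc7a8 (-0.27 to 0.40) and Slc3a2 (-0.112 to 0.013) in liver treatment against control, Slc3a1 (-0.29 to 0.43) in liver recovery against control, and Slc7a7 (-0.18 to 0.17) and Slc7a8 (-0.23 to 0.45) in the difference between organs. The cause of these changes was not tested. Libraries of the same number did not vary together (0 of 9 pairs over 0.1 in kidney, r -0.11 to 0.09), so the numbers were not read as pairs; a replicate block called 554 genes in kidney for treatment against control and 1063 for treatment against recovery, with the same members called.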
